A study of Mus musculus with 23 samples.

Results

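The transcripts of 35 genes that mark vascular endothelium or sit on its surface were followed in muscle, fat and hypothalamus of mice given oxaliplatin for 8 weeks. The mice were C57BL/6, a common inbred strain. The genes were found by symbol in the gene tables of the study, which together hold 29894 genes, and all 35 were present and tested in each tissue. They were chosen by name with the oxaliplatin changes of these same libraries already known, so the changes count as values that chose them: counts over the 35 genes are descriptions and support nothing. Oxaliplatin is a platinum drug that crosslinks DNA and is given against colorectal cancer. The groups were oxaliplatin at 10 mg/kg and vehicle, with 5 oxaliplatin and 4 vehicle libraries of tibialis anterior (a shin muscle), 4 and 3 of subcutaneous white fat, and 4 and 3 of hypothalamus. All animals were of the strain named above, with no engineered allele or other agent in the labels, which give neither age nor sex. Nothing in the labels says how libraries with the same mouse number in different tissues relate, and p-values measure the spread between these libraries.

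Endothelial cells line all vessels and are held together by adhesion proteins, carry a sugar-rich surface coat, and receive signals from blood, flow and supporting cells through receptors found on few other cells. Factors of the ETS and SOX families keep this identity, BMP ligands in blood act through endoglin and switch on Id1 and Smad6, and inflammatory signals acting through NF-kB place Icam1 on the surface for leukocytes. Von Willebrand factor, stored in endothelial granules, tethers platelets. In brain, endothelium forms the blood-brain barrier and lacks most of the fenestrae seen elsewhere, and in fat and muscle it controls the passage of lipids and fuel.

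RefSeq promoter windows on GRCm38.p6, from 250 bases before to 50 after a gene's start, were available for 18 of the 35 genes and were searched on both strands for GGAANNTCC (an NF-kB-like word), GGAAGT (an ETS word) and CCATTGT (a SOX word). The NF-kB-like word was in 1 of the 18, Icam1, against 4.86% of 27025 genes with a window. The ETS word was in 6 (Adgrf5, Egfl7, Eng, Ly6c1, Tie1 and Tmem252), which is 33.3% against 26.5% of all genes, and the SOX word in 0 against 4.15%. The windows of Icam1, Eng, Tmem252 and Tie1 are shown because Icam1 had the largest log2 change of the 35 genes in muscle, Eng the smallest adjusted p of the 35 in hypothalamus, Tmem252 the largest log2 change of the 35 in fat, and Tie1, with the same ETS word, had overlapping arms in every tissue. Capitals mark the matched word as it reads on the printed strand, which is the gene's own. A match is a description of these letters and not of binding.
Icam1, chr9:21015690-21015989, plus strand, NF-kB-like word 153 bases before the start: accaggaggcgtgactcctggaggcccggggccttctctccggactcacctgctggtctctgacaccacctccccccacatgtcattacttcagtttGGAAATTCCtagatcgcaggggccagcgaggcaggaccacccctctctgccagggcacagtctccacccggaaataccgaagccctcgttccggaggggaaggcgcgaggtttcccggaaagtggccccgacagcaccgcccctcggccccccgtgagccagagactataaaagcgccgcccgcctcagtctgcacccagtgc
Eng, chr2:32646345-32646644, plus strand, ETS word 53 bases before the start: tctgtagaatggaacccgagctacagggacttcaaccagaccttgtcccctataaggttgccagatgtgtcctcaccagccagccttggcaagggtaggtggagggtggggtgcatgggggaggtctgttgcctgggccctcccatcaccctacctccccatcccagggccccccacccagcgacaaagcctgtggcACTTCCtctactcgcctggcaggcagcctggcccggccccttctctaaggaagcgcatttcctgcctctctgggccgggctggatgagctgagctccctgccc
Tmem252, chr19:24673758-24674057, plus strand, ETS word 102 bases before the start: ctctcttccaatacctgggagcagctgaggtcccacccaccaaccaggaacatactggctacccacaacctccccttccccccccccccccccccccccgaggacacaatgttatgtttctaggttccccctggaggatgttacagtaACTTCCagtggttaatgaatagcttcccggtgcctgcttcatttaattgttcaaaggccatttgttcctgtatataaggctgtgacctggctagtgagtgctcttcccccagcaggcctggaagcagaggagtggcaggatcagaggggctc
Tie1, chr4:118489800-118490099, minus strand, ETS word 82 bases before the start: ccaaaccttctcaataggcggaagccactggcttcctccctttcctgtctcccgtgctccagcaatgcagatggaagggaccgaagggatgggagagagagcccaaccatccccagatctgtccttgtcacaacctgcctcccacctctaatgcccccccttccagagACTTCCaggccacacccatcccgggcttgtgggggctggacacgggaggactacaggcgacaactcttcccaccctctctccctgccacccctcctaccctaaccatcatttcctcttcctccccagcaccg

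Levels are CPM, counts scaled to the effective library size within a tissue, listed by rising mouse number (1 to 5 and 1 to 4 in muscle, 2 to 5 and 1, 2 and 4 elsewhere, oxaliplatin and vehicle), and changes are log2 folds of oxaliplatin over vehicle ± SE. A gene is said to rise or fall where its p, adjusted over all genes tested in the tissue, is under 0.05. Library totals ran from 16.5 to 32.2 M counts, and in hypothalamus each oxaliplatin library (23.6 to 26.4 M) was shallower than each vehicle library (27.4 to 28.5 M). The muscle library titled oxaliplatin mouse 5 carries vehicle as its treatment entry and was grouped by its title. In fat, oxaliplatin mouse 5 had 11610 CPM of fibroblast marker transcripts against 716 to 1245 CPM in oxaliplatin mice 2 to 4 and 6349 to 8628 CPM in vehicle. Vehicle fat mouse 4 had 121600 CPM of myofibre transcripts, against 40.4 and 1180 CPM in the other vehicle fat libraries. In hypothalamus, oxaliplatin mouse 5 stood apart from mice 2 to 4 for the 35 genes, with the lowest oxaliplatin value in 24 of them. The tissue labels were met by their markers: 129100 to 187000 CPM of myofibre transcripts in muscle, 11210 to 18390 CPM of adipocyte transcripts in fat and 1578 to 2408 CPM of neuron transcripts in hypothalamus. Beyond the 35 genes, the endothelial markers Kdr, Flt1, Tek and Cldn5 were present in all 3 tissues.

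In hypothalamus, 11 of the 35 genes rose with oxaliplatin, against 0.148% of all 18941 tested genes that rose. Those 11 were Eng, Adgrl4, Vwf, Pecam1, Ly6a, Ly6c1, Tmem252, Ptprb, Clec14a, Robo4 and B3gnt3. By edgeR 0 of the 35 fell, and 0 of all 18941 genes. At an unadjusted p under 0.05, 0 of the 35 were lower, against 758 of all genes. DESeq2 and limma-voom called 0 of the 35 lower. Of all the genes they called, 223 of 266 and 11 of 11 were higher. For 26 genes every oxaliplatin library lay above every vehicle library (5.58% of all genes), and for none did every one lie below (4.35%). The log2 change was above 0 in 33 of 35 genes (52.0% of all genes), with a median of 0.82 against 0.01 over all genes. DESeq2 called 22 of the 35 (1.43% of all genes) and limma-voom 3, Eng, Vwf and Adgrl4 (0.0581%). In these bulk samples more endothelial cells and more RNA per endothelial cell cannot be told apart.

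**Figure D1:**
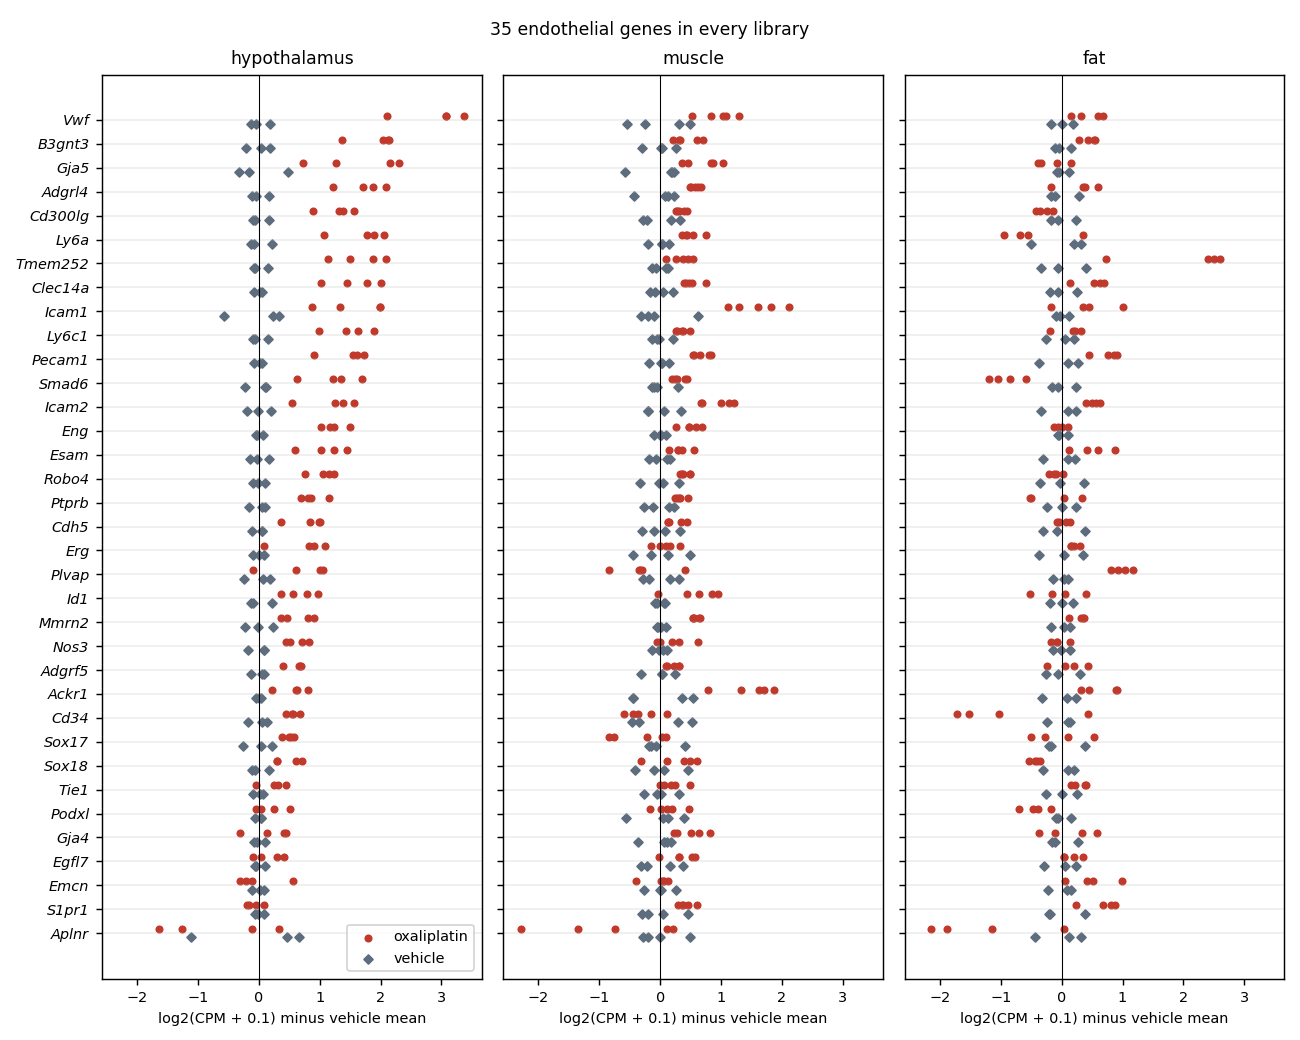
Each point is 1 library, placed by its log2(CPM + 0.1) minus the mean of the vehicle libraries of that tissue (x axis, log2 units), with oxaliplatin as circles above and vehicle as diamonds below for each of the 35 genes (y axis). In hypothalamus 26 genes have all oxaliplatin circles right of all vehicle diamonds, in muscle 15 and in fat 6.

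The secreted and matrix genes held the member with the largest change. Vwf, the platelet-tethering glycoprotein (chromosome 6, 125546774 to 125686680, plus strand, GRCm38), was at 252, 311, 252 and 128 CPM in oxaliplatin hypothalamus, against 29.0, 27.3 and 33.8 CPM in vehicle hypothalamus (2.97 ± 0.30, adjusted p = 0.0193), a fold of 7.85. The lowest oxaliplatin library, mouse 5, was still above the highest vehicle library. Mmrn2, a matrix ligand of the lectin Clec14a, was at 8.10 to 11.8 CPM in oxaliplatin hypothalamus, against 5.34 to 7.35 CPM in vehicle hypothalamus (0.65 ± 0.18, adjusted p = 0.322), apart but not called, and Egfl7, a secreted regulator of vessel formation, was at 18.7 to 26.7 CPM in oxaliplatin hypothalamus, against 19.2 to 21.4 CPM in vehicle hypothalamus (0.18 ± 0.13), with overlapping groups. Vwf is also made by megakaryocytes, and platelet and megakaryocyte markers summed to 8.58 to 13.9 CPM in oxaliplatin hypothalamus and 8.68 to 10.8 CPM in vehicle hypothalamus. The part of these cells in the Vwf change was not tested.

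Among the 7 genes of junctions and adhesion, all were above 0 (52.0% of all genes), with a median of 1.27, and 1 rose (0.148%). Pecam1, the adhesion protein of endothelial contacts (chromosome 11, 106654217 to 106750629, minus strand), was at 56.5, 51.8, 49.9 and 31.8 CPM in oxaliplatin hypothalamus, against 17.6, 16 and 17.2 CPM in vehicle hypothalamus (1.49 ± 0.18, adjusted p = 0.0212). Cdh5, VE-cadherin of the adherens junction, was at 41.4, 41.9, 37.3 and 26.9 CPM in oxaliplatin hypothalamus, against 19.4, 21.6 and 21.7 CPM in vehicle hypothalamus (0.82 ± 0.15, adjusted p = 0.109). For both genes every oxaliplatin library exceeded every vehicle library, and mouse 5 was the lowest of the 4. Icam1, the leukocyte ligand (chromosome 9, 21015985 to 21028818, plus strand), was at 10.2, 10.2, 6.42 and 4.65 CPM in oxaliplatin hypothalamus, against 1.64, 2.95 and 3.18 CPM in vehicle hypothalamus (1.60 ± 0.33, adjusted p = 0.187) and did not pass. Its relative Icam2 (1.27 ± 0.27, adjusted p = 0.172), the junctional protein Esam (1.11 ± 0.19, adjusted p = 0.0856) and the arterial connexin gene Gja5 (1.81 ± 0.44, adjusted p = 0.26) were likewise apart without passing. Gja5 was low, at 1.44 to 4.51 CPM in oxaliplatin hypothalamus and 0.648 to 1.20 CPM in vehicle hypothalamus. Gja4, another arterial connexin gene, overlapped (0.20 ± 0.20).

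Receptors and other signalling surface proteins gave 5 of the 11 rises. Eng, endoglin, the co-receptor for BMP and TGF-beta ligands (chromosome 2, 32646595 to 32682670, plus strand), was at 55.5, 69.3, 58.1 and 50.1 CPM in oxaliplatin hypothalamus, against 23.8, 25.8 and 24.1 CPM in vehicle hypothalamus (1.25 ± 0.12, adjusted p = 0.00738). Adgrl4, an adhesion G protein-coupled receptor of angiogenic endothelium, was at 52.2, 44.7, 39.9 and 28.6 CPM in oxaliplatin hypothalamus, against 13.6, 11.2 and 11.8 CPM in vehicle hypothalamus (1.76 ± 0.19, adjusted p = 0.0136). Clec14a, the lectin that binds Mmrn2, was at 14.8, 17.4, 11.8 and 8.76 CPM in oxaliplatin hypothalamus, against 4.04, 4.43 and 4.28 CPM in vehicle hypothalamus (1.63 ± 0.22, adjusted p = 0.0297). In these 3 genes every oxaliplatin library exceeded every vehicle library. Robo4, which stabilises vessels, was at 14.2, 12.5, 13.3 and 10.1 CPM in oxaliplatin hypothalamus, against 5.88, 6.37 and 5.57 CPM in vehicle hypothalamus (1.07 ± 0.15, adjusted p = 0.0307). Ptprb, the phosphatase that acts on the Tie2 receptor and on VE-cadherin, was at 119, 150.1, 109 and 122 CPM in oxaliplatin hypothalamus, against 72.5, 60.8 and 70.1 CPM in vehicle hypothalamus (0.88 ± 0.12, adjusted p = 0.0297). In both genes the arms were apart, and whether these changes differed from those of Adgrl4 and Clec14a was not tested. The orphan adhesion receptor Adgrf5 (0.61 ± 0.10, adjusted p = 0.0779) and the chemokine-binding Ackr1 of venules and red cells (0.59 ± 0.13, adjusted p = 0.237) were apart without passing. So was Cd300lg, a capillary surface glycoprotein, at 0.370 to 0.654 CPM in oxaliplatin hypothalamus, against 0.137 to 0.185 CPM in vehicle hypothalamus (1.75 ± 0.44, adjusted p = 0.277), levels close to none. Tie1, partner of Tie2, overlapped (0.25 ± 0.13), as did S1pr1, a sphingosine phosphate receptor that astrocytes also express (-0.07 ± 0.09), and Aplnr, the apelin receptor, which was near 0 at 0.0403 to 0.453 CPM in oxaliplatin hypothalamus, against 0.103 to 0.591 CPM in vehicle hypothalamus.

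The surface coat split. Ly6a, a membrane-anchored antigen of endothelium, was at 44.2, 36.2, 39.0 and 22.3 CPM in oxaliplatin hypothalamus, against 9.92, 9.57 and 12.2 CPM in vehicle hypothalamus (1.75 ± 0.22, adjusted p = 0.0297). Ly6c1, of the same family, was at 71.9, 52.4, 60.3 and 38.5 CPM in oxaliplatin hypothalamus, against 18.6, 18.2 and 21.5 CPM in vehicle hypothalamus (1.52 ± 0.19, adjusted p = 0.0297). Both rose, and both belong to a family of near-identical copies, so how their reads were shared is uncertain. Plvap, the protein of fenestral diaphragms, was at 13, 17.7, 17.0 and 7.90 CPM in oxaliplatin hypothalamus, against 8.82, 9.61 and 7.09 CPM in vehicle hypothalamus (0.71 ± 0.26, adjusted p = 0.439), with oxaliplatin mouse 5 inside the vehicle range. The sialomucin Cd34 was apart (0.56 ± 0.11, adjusted p = 0.151), while the sialomucin Podxl (0.21 ± 0.13) and Emcn, endomucin (0.02 ± 0.23), overlapped.

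No transcription or BMP-response gene was called by edgeR in hypothalamus, although all 5 were above 0 (52.0% of all genes). All 5 had an unadjusted p under 0.05, as had 1174 genes higher and 758 lower among all 18941. DESeq2 called 2 of the 5 (1.43% of all genes) and limma-voom 0 (0.0581%). Smad6, the inhibitory SMAD induced by BMP signalling (chromosome 9, 63953076 to 64022060, minus strand), was at 12.2, 15.6, 11.2 and 7.45 CPM in oxaliplatin hypothalamus, against 4.04, 5.15 and 5.21 CPM in vehicle hypothalamus (1.28 ± 0.24, adjusted p = 0.111). Id1, a BMP target, was at 21.3, 28.3, 25.0 and 18.6 CPM in oxaliplatin hypothalamus, against 13.5, 13.1 and 16.8 CPM in vehicle hypothalamus (0.69 ± 0.16, adjusted p = 0.237). Both were apart between arms. The ETS factor Erg overlapped (0.78 ± 0.22) and the SOX factors Sox17 and Sox18 were apart (0.49 ± 0.15 and 0.49 ± 0.15). Of the remaining genes, B3gnt3, a glycosyltransferase that extends O-linked sugars, was at 2.5, 2.67, 2.65 and 1.52 CPM in oxaliplatin hypothalamus, against 0.547, 0.612 and 0.443 CPM in vehicle hypothalamus (2.12 ± 0.30, adjusted p = 0.0331). Tmem252, a membrane protein, was at 14.1, 12.1, 9.27 and 7.16 CPM in oxaliplatin hypothalamus, against 3.04, 3.56 and 3.06 CPM in vehicle hypothalamus (1.72 ± 0.24, adjusted p = 0.0297). Nos3, endothelial nitric oxide synthase, was at 14.7, 17.8, 19.3 and 15.4 CPM in oxaliplatin hypothalamus, against 9.51, 11.5 and 11.5 CPM in vehicle hypothalamus (0.63 ± 0.14, adjusted p = 0.191). B3gnt3 and Tmem252 rose, and Nos3 was apart without passing.

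The number of calls in hypothalamus depended on single libraries, while the size of the changes moved less. Leaving out oxaliplatin mouse 2, 3, 4 or 5 left 10, 2, 0 or 24 of the 35 genes called, beside 31, 6, 2 or 655 of all genes. Leaving out vehicle mouse 1, 2 or 4 left 0 of the 35 each time, beside 1, 1 or 0 of all genes. Across those 7 fits the log2 change ran from 2.80 to 3.17 for Vwf, from 1.40 to 1.63 for Pecam1 and from 1.14 to 1.30 for Eng, and no called gene changed sign. Endothelial markers outside the 35 genes and markers of other cells stood beside these changes. Kdr, Flt1, Tek and Cldn5 summed to 239 to 381 CPM in oxaliplatin hypothalamus and 131 to 145 CPM in vehicle hypothalamus. The 10 pericyte and smooth muscle markers summed to 266 to 329 CPM in oxaliplatin hypothalamus and 210.2 to 243 CPM in vehicle hypothalamus, with Kcnj8 and Abcc9 called among them and the others of the 10 not called. Erythroid transcripts were at 99.2, 74.4, 251 and 1322 CPM in oxaliplatin hypothalamus, against 912, 706 and 645 CPM in vehicle hypothalamus. Oxaliplatin mouse 5 thus had the most erythroid transcripts of all 7 libraries, and among the 4 oxaliplatin libraries it was the lowest in 24 of the 35 genes. The 4 oligodendrocyte markers summed to 1491 to 3717 CPM in oxaliplatin hypothalamus and 3373 to 4143 CPM in vehicle hypothalamus. The part of depth and of these cells in the result was not tested.

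**Figure D2:**
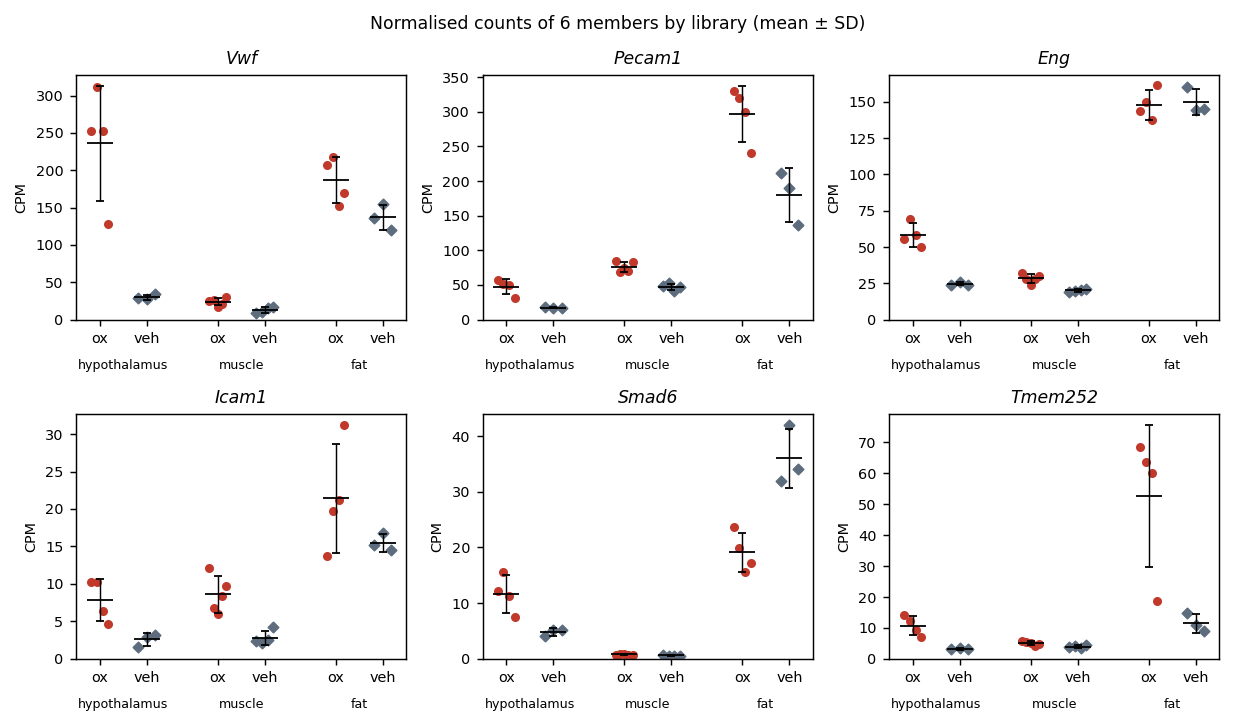
CPM (y axes, starting at 0) of 6 of the genes in each library, with oxaliplatin (ox, circles) left of vehicle (veh, diamonds) in hypothalamus, muscle and fat (x axis), and bars for mean ± SD. Vwf reaches 128 to 311 CPM in oxaliplatin hypothalamus against 27.3 to 33.8 CPM in vehicle hypothalamus, while Smad6 in fat lies lower with oxaliplatin.

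In muscle, 3 of the 35 genes rose with oxaliplatin, Icam1, Mmrn2 and Pecam1, against 0.115% of all 14737 tested genes. By edgeR 0 of the 35 fell, against 7 of all 14737 genes. At an unadjusted p under 0.05, 0 of the 35 were lower, against 706 of all genes. DESeq2 and limma-voom called 0 of the 35 lower. Of all the genes they called, 155 of 248 and 12 of 13 were higher. The arms were apart for 15 genes, all with oxaliplatin higher (2.18% of all genes), and for none with oxaliplatin lower (1.70%). Altogether 30 of 35 log2 changes were above 0 (47.8% of all genes), with a median of 0.35 against -0.01 over all genes. DESeq2 called 10 of the 35 (1.49% of all genes) and limma-voom 1, Mmrn2 (0.0882%).

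Adhesion genes led in muscle. Icam1 was at 12.1, 6.83, 5.95, 8.43 and 9.77 CPM in oxaliplatin muscle, against 2.34, 2.16, 2.52 and 4.24 CPM in vehicle muscle (1.61 ± 0.25, adjusted p = 0.0407), a fold of 3.04. Icam2 was at 13.6, 11.8, 13, 9.32 and 9.51 CPM in oxaliplatin muscle, against 6.11, 7.41, 5.07 and 5.06 CPM in vehicle muscle (0.95 ± 0.17, adjusted p = 0.0526). Pecam1 was at 84.0, 68.6, 74.3, 69.7 and 82.6 CPM in oxaliplatin muscle, against 48.4, 52.3, 41.4 and 47.7 CPM in vehicle muscle (0.68 ± 0.11, adjusted p = 0.0443). In all 3 genes the lowest oxaliplatin library was above the highest vehicle library. Cdh5 was at 32.6, 40.2, 37.9, 32.4 and 33.0 CPM in oxaliplatin muscle, against 31.4, 37.3, 24.0 and 27.8 CPM in vehicle muscle (0.23 ± 0.14, adjusted p = 0.672), with overlapping arms, and whether its change differed from that of Pecam1 was not tested. The connexin genes Gja4 (0.50 ± 0.16, adjusted p = 0.283) and Gja5 (0.70 ± 0.20, adjusted p = 0.227) were apart without passing.

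Of the secreted genes in muscle, Mmrn2 was at 28.3, 27.9, 26.1, 26.2 and 26.5 CPM in oxaliplatin muscle, against 17.2, 18.1, 19.1 and 17.5 CPM in vehicle muscle (0.58 ± 0.09, adjusted p = 0.0414), a small change with little spread. Vwf was at 24.7, 25.5, 17.3, 21.3 and 29.6 CPM in oxaliplatin muscle, against 8.20, 10.0, 15 and 16.9 CPM in vehicle muscle (0.92 ± 0.22, adjusted p = 0.143), apart by a narrow margin. Among receptors, Ackr1 was at 6.89, 7.70, 3.60, 5.27 and 6.51 CPM in oxaliplatin muscle, against 1.48, 1.47, 2.66 and 3.03 CPM in vehicle muscle (1.46 ± 0.28, adjusted p = 0.0617). Eng was at 32.3, 27.8, 23.9, 27.9 and 30.1 CPM in oxaliplatin muscle, against 18.7, 20.0, 20.1 and 21.4 CPM in vehicle muscle (0.50 ± 0.11, adjusted p = 0.107). Both were apart, and neither passed. Adgrl4 (0.56 ± 0.13, adjusted p = 0.143), Clec14a (0.51 ± 0.13, adjusted p = 0.186), Robo4 (0.39 ± 0.13) and Ptprb (0.31 ± 0.12) were apart too.

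In muscle edgeR called 0 genes of the surface coat and 0 of the regulators, where 0.115% of all genes rose. At an unadjusted p under 0.05 there were 2 and 1 (9.59% of all genes). DESeq2 called 1 and 0 (1.49% of all genes), and limma-voom 0 and 0 (0.0882%). Ly6a (0.50 ± 0.12, adjusted p = 0.137) and Ly6c1 (0.35 ± 0.11) were apart, while Plvap was at 3.02, 2.90, 2.05, 2.94 and 4.99 CPM in oxaliplatin muscle, against 4.18, 4.64, 3.28 and 3.05 CPM in vehicle muscle (-0.24 ± 0.24). Cd34 (-0.33 ± 0.21), Aplnr (-0.59 ± 0.45), Sox17 (-0.34 ± 0.31) and Emcn (-0.03 ± 0.14) were the other genes with a value below 0, all with overlapping arms. Id1 was at 24.5, 13.2, 26.5, 21.3 and 18.4 CPM in oxaliplatin muscle, against 13.1, 14.3, 14.4 and 12.8 CPM in vehicle muscle (0.61 ± 0.18, adjusted p = 0.238), with oxaliplatin mouse 2 inside the vehicle range. Nos3 was at 7.61, 6.11, 5.6, 4.89 and 4.75 CPM in oxaliplatin muscle, against 5.09, 5.29, 4.86 and 4.44 CPM in vehicle muscle (0.24 ± 0.17, adjusted p = 0.74), also overlapping. Smad6 was low in muscle, at 0.726 to 0.873 CPM in oxaliplatin muscle, against 0.559 to 0.779 CPM in vehicle muscle (0.34 ± 0.27), and Cd300lg was at 25.5 to 28.8 CPM in oxaliplatin muscle, against 17.3 to 26.6 CPM in vehicle muscle (0.32 ± 0.14), both overlapping.

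The muscle calls were fragile as well. Without oxaliplatin mouse 5, the library with the conflicting label, 0 of the 35 genes and 8 of all genes were called with a member median of 0.37, and with that library set to vehicle 0 and 0, with a median of 0.31. Without any other 1 library, 0 or 1 of the 35 was called, Icam1 (without oxaliplatin mouse 3 or vehicle mouse 4) or Icam2 (without vehicle mouse 2), and the log2 change of Icam1 ran from 1.45 to 1.88. Kdr, Flt1, Tek and Cldn5 together were at 78.4 to 90.3 CPM in oxaliplatin muscle and 56.5 to 92.2 CPM in vehicle muscle, with 0 of the 4 called by edgeR. The 8 fibroblast markers summed to 408 to 856 CPM in oxaliplatin muscle and 551 to 1899 CPM in vehicle muscle. The 10 pericyte and smooth muscle markers were all above 0, with sums of 461 to 533 CPM in oxaliplatin muscle and 343.5 to 474 CPM in vehicle muscle, and Higd1b among them was called (1.52, adjusted p = 0.0128). T and B cell markers summed to 0.60 to 1.16 CPM in oxaliplatin muscle and 1.18 to 4.33 CPM in vehicle muscle. Their part in the result was not tested.

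In fat, edgeR called 0 of the 35 genes, and 0 of all 19870 genes (0%). At an unadjusted p under 0.05 there were 11 higher and 3 lower members, where 26.1% of all genes passed in either direction. The arms were apart for 6 members with oxaliplatin higher (10.3% of all genes) and for 3 with oxaliplatin lower (11.2%). In all, 20 of 35 were above 0 (52.4% of all genes), with a median of 0.14 against 0.03. DESeq2 called 6 of the 35, 4 of them higher (12.1% of all genes), and limma-voom called 0 (0%).

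The genes of smallest p in fat went both ways. Plvap was at 177, 161, 149.9 and 137 CPM in oxaliplatin fat, against 70.8, 84.3 and 81.0 CPM in vehicle fat (0.99 ± 0.13, adjusted p = 0.0751). Tmem252 was at 68.4, 63.7, 60.0 and 18.6 CPM in oxaliplatin fat, against 14.8, 10.8 and 8.86 CPM in vehicle fat (2.20 ± 0.46, adjusted p = 0.111), with mouse 5 far below the other oxaliplatin libraries and still above vehicle. Pecam1 was at 331, 319, 299.5 and 239.9 CPM in oxaliplatin fat, against 212, 189.9 and 136 CPM in vehicle fat (0.73 ± 0.20, adjusted p = 0.118), and its arms were apart in all 3 tissues. Smad6 was at 23.7, 19.9, 15.6 and 17.3 CPM in oxaliplatin fat, against 32.0, 41.9 and 34.1 CPM in vehicle fat (-0.91 ± 0.18, adjusted p = 0.0928), with every oxaliplatin library below every vehicle library, whereas in hypothalamus every oxaliplatin library was above. B3gnt3 was at 29.4, 29.8, 27.5 and 24.8 CPM in oxaliplatin fat, against 22.6, 18.8 and 19.8 CPM in vehicle fat (0.45 ± 0.12, adjusted p = 0.12). Sox18 was at 38.2, 42.1, 43.4 and 41.0 CPM in oxaliplatin fat, against 63.8, 60.0 and 45.2 CPM in vehicle fat (-0.45 ± 0.14, adjusted p = 0.128), lower and apart. Icam2 (0.51 ± 0.17) and Ackr1 (0.65 ± 0.22) were apart upward and Podxl (-0.43 ± 0.15) downward.

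Several genes with larger values in the other tissues overlapped between arms in fat. Vwf was at 207, 218, 152 and 169.7 CPM in oxaliplatin fat, against 137, 154 and 120.0 CPM in vehicle fat (0.45 ± 0.17, adjusted p = 0.163). Eng was at 144, 149.8, 137 and 162 CPM in oxaliplatin fat, against 161, 144 and 145 CPM in vehicle fat (-0.02 ± 0.11, adjusted p = 0.93). Cdh5 was at 269.8, 278, 299 and 315 CPM in oxaliplatin fat, against 371, 272 and 231 CPM in vehicle fat (-0.00 ± 0.19, adjusted p = 0.99). In each of these 3 genes the arms overlapped. Icam1 was at 13.7, 19.8, 21.2 and 31.2 CPM in oxaliplatin fat, against 15.2, 16.8 and 14.5 CPM in vehicle fat (0.47 ± 0.26, adjusted p = 0.28), highest in oxaliplatin mouse 5. Nos3 was at 87.1, 87.2, 81.6 and 101 CPM in oxaliplatin fat, against 102, 92.1 and 84.1 CPM in vehicle fat (-0.05 ± 0.12, adjusted p = 0.798). Id1 was at 49.9, 39.3, 33.9 and 26.4 CPM in oxaliplatin fat, against 43.2, 33.3 and 38.0 CPM in vehicle fat (-0.03 ± 0.22, adjusted p = 0.94). Upper quartile scaling moved the median of all fat genes to 0.10, and the signs of Cdh5, Eng, Nos3, Id1 and Sox17 flipped with it, so no direction is given for these 5.

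Without oxaliplatin mouse 5, edgeR called 13 of the 35 fat genes and 4969 of all genes. Among the 13, 8 were higher, Pecam1 (0.82), Emcn (0.65), Esam (0.63), Clec14a (0.61), Plvap (1.05), S1pr1 (0.77), Tmem252 (2.48) and B3gnt3 (0.50), and 5 lower, Ly6a (-0.77), Cd34 (-1.41), Podxl (-0.52), Aplnr (-1.70) and Smad6 (-0.87). Cd34 was at 51.2, 58.6, 81.9 and 226 CPM in oxaliplatin fat, against 142, 184 and 182 CPM in vehicle fat, so mouse 5 alone lay above the vehicle range. Cd34 is also expressed by fibroblast progenitors of fat, and the fibroblast list was high in the same library. Without vehicle mouse 4, the library with myofibre transcripts, the median of the 35 was 0.03 and 0 genes were called. Neutrophil markers were at 2.43 to 64.7 CPM in oxaliplatin fat and 0.60 to 1.04 CPM in vehicle fat. T and B cell markers were at 6.329, 39.8, 46.65 and 134.7 CPM in oxaliplatin fat, against 6.809, 8.953 and 6.439 CPM in vehicle fat. Platelet and megakaryocyte markers were at 59.5 to 75.6 CPM in oxaliplatin fat and 30.1 to 50.5 CPM in vehicle fat. The 10 pericyte and smooth muscle markers summed to 930.2 to 1016 CPM in oxaliplatin fat and 1191 to 1299 CPM in vehicle fat. The list went both ways, with 5 of the 10 above 0 (52.4% of all genes), a median of -0.13 and 0 called by edgeR. Kdr, Flt1, Tek and Cldn5 overlapped, at 391.7 to 607 CPM in oxaliplatin fat and 379 to 521 CPM in vehicle fat. Their part in the fat values was not tested.

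**Figure D3:**
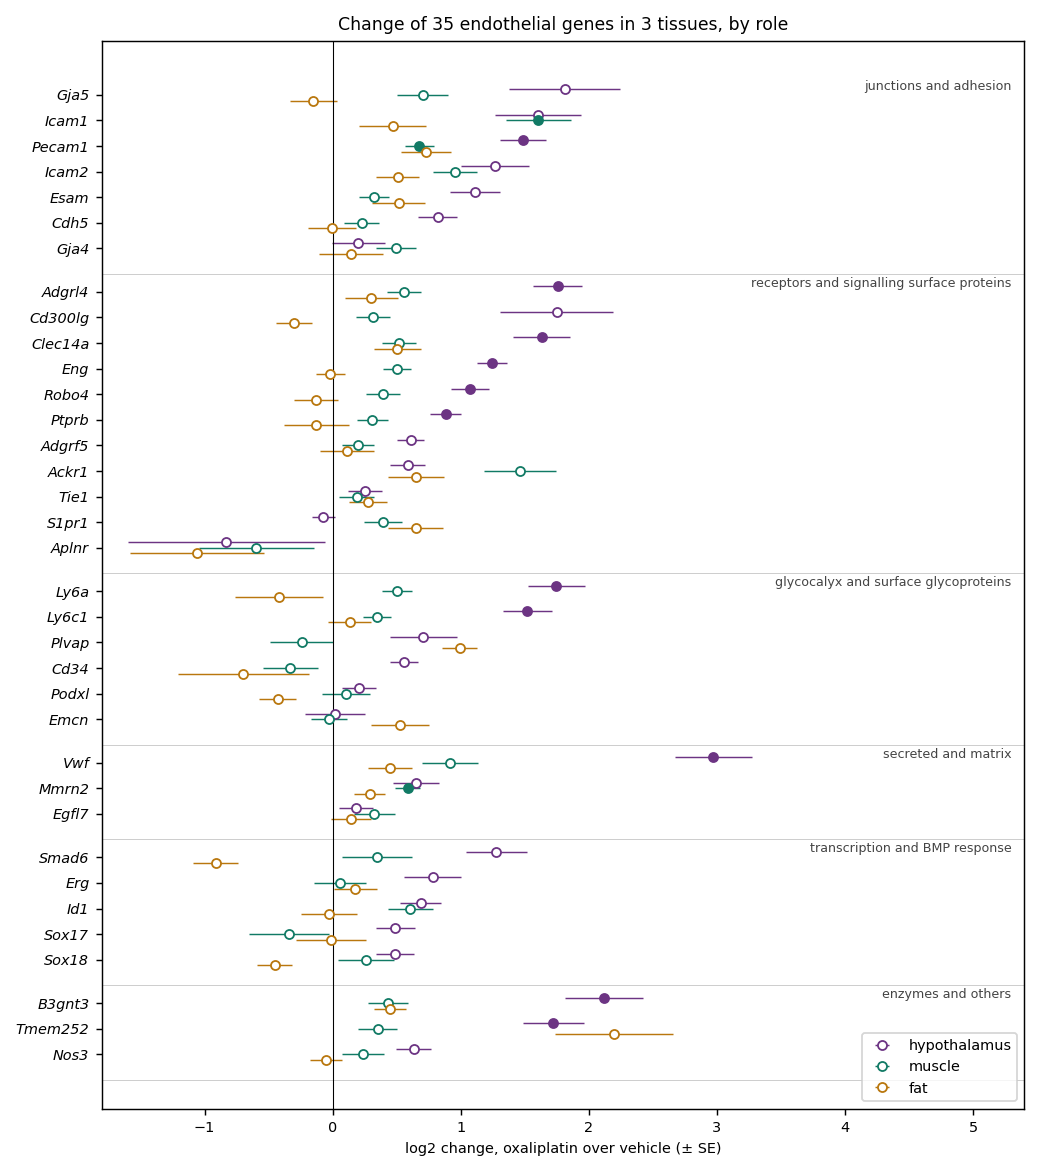
Log2 change of oxaliplatin over vehicle ± SE (x axis) for the 35 genes (y axis), grouped by role, in hypothalamus, muscle and fat. Filled circles passed at an adjusted p under 0.05: 11 in hypothalamus, 3 in muscle and 0 in fat.

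Whether the change differed between tissues was tested gene by gene in fits over 2 tissues. These tests use the same libraries as the changes above and are not independent of them. They take each library as a separate animal, although mouse numbers recur between tissues. They also share the spread of each gene between both tissues, which the fits within a tissue do not. Relative to hypothalamus, fat had a lower change in 6 of the 35 genes, against 0.225% of all 20892 genes. They were Vwf (-2.53 ± 0.33, adjusted p = 0.0134), Smad6 (-2.19 ± 0.31, adjusted p = 0.0183), Cd300lg (-2.05 ± 0.29, adjusted p = 0.0183), B3gnt3 (-1.67 ± 0.27, adjusted p = 0.0238), Eng (-1.26 ± 0.16, adjusted p = 0.00923) and Robo4 (-1.20 ± 0.22, adjusted p = 0.0473). Smad6 and Cd300lg were below 0 in fat (-0.91 ± 0.18 and -0.30 ± 0.14) and above 0 in hypothalamus (1.28 ± 0.24 and 1.75 ± 0.44). Cd300lg in fat was at 117.4, 96.5, 101 and 109 CPM in oxaliplatin fat, against 153, 114 and 123 CPM in vehicle fat. In hypothalamus Cd300lg was close to none, at 0.370 to 0.654 CPM with oxaliplatin and 0.137 to 0.185 CPM in vehicle. Its change was not called by edgeR within hypothalamus (adjusted p = 0.277), and had a wider SE there than the difference between tissues. In 29 of 35 genes the fat change was the smaller, with a median difference of -0.76 against -0.03 over all genes.

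Muscle had a lower change than hypothalamus in 1 gene, Vwf (-2.02 ± 0.35, adjusted p = 0.0317), against 0.0517% of all 17415 genes. Here too 29 of 35 differences were below 0, with a median of -0.65. Icam1 had no called difference between these tissues (0.05 ± 0.45, adjusted p = 0.989), with an SE too wide to show that its changes were alike. Ackr1 had the larger value in muscle (0.91 ± 0.33, adjusted p = 0.36), not called. Between muscle and fat edgeR called 0 members (0.239% of all genes), 11 had an unadjusted p under 0.05 (17.0% of all genes), and limma-voom called 0. The smallest p there belonged to Smad6 (1.23 ± 0.26, adjusted p = 0.0594) and Tmem252 (-1.88 ± 0.43, adjusted p = 0.0708).

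With the animal, named by arm and mouse number, as a random effect the 3 contrasts gave 9 (fat minus hypothalamus, without Cd300lg and with Sox18, Adgrl4, Ly6a and Ly6c1 added, beside 264 of all genes), 1 (muscle minus hypothalamus) and 0 members (muscle minus fat). With it as a fixed block, on animals with both tissues, they gave 0, 0 and 0 members, beside 0, 0 and 3 of all genes. The member medians were -0.72, -0.61 and 0.25. Leaving out 1 library at a time gave 0 to 19 members for fat minus hypothalamus, 19 without fat oxaliplatin mouse 5 (3151 of all genes), 10 without hypothalamus oxaliplatin mouse 5 (118), and 0, 1 or 2 without vehicle hypothalamus mouse 1, 2 or 4 (3, 4 or 6). It gave 0 to 10 for muscle minus hypothalamus, 10 without hypothalamus oxaliplatin mouse 5 (110 of all genes). For muscle minus fat it gave 0 to 7, 7 without fat oxaliplatin mouse 5 (1626 of all genes). Muscle libraries were made with another kit than the others, and that kit and the tissue cannot be told apart.

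**Figure D4:**
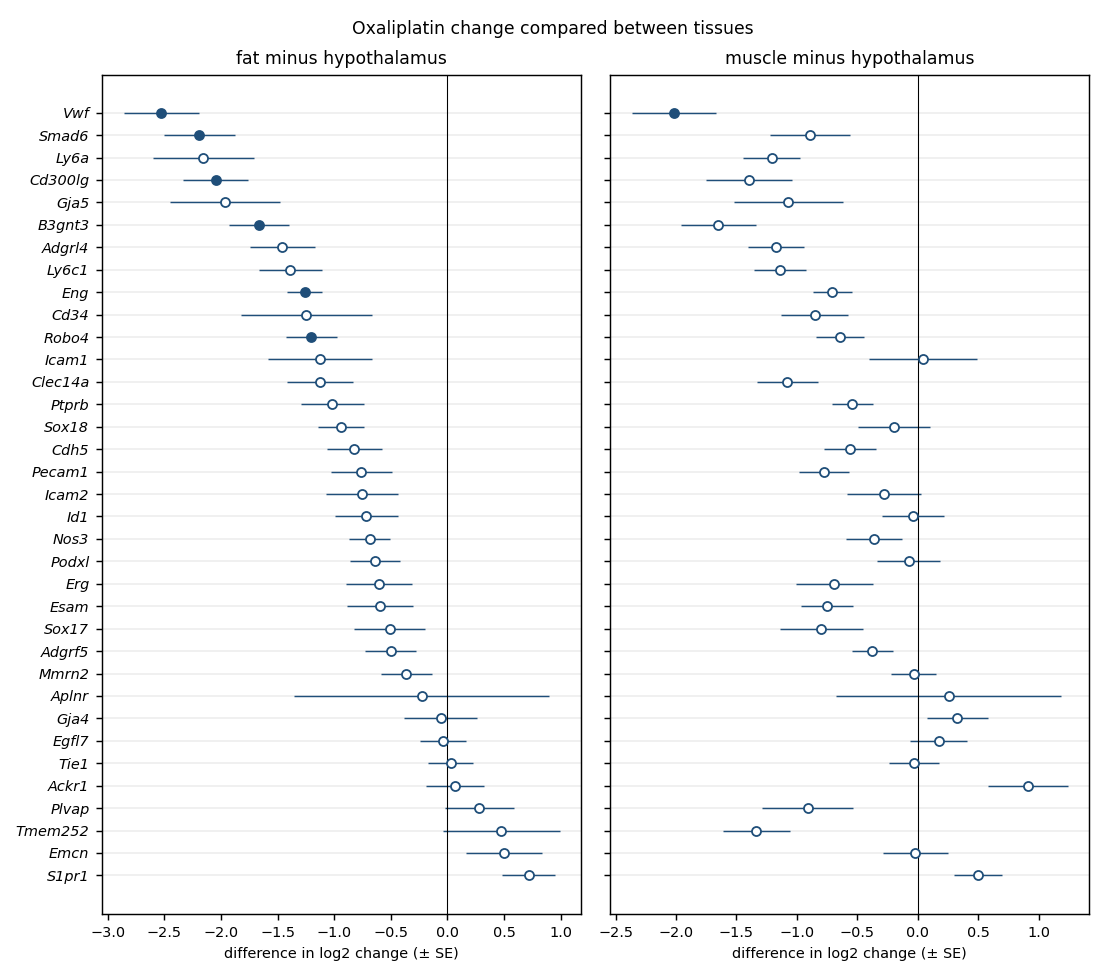
Difference in the oxaliplatin log2 change between tissues ± SE (x axes) for the 35 genes (y axis), as fat minus hypothalamus on the left and muscle minus hypothalamus on the right. Filled circles passed at an adjusted p under 0.05, 6 on the left and Vwf on the right.

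Across tissues, 14 genes had oxaliplatin higher with arms apart in both muscle and hypothalamus: Pecam1, Eng, Vwf, Robo4, Mmrn2, Clec14a, Adgrl4, Ly6a, Ly6c1, Icam1, Icam2, Ptprb, Ackr1 and Gja5. The same held for 51 of the 13551 genes tested in both tissues (0.376%). Of the 14, Pecam1, Icam2 and Ackr1 were also apart in fat, as were 12 of the 13284 genes tested in all tissues in each of them (0.0903%). In 6 genes, Tie1, Emcn, Egfl7, Erg, S1pr1 and Aplnr, the arms overlapped in every tissue, as they did for 66.1% of all genes. These shares are printed as background, since the same contrasts chose the 35 genes. The tissues share no library.

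Levels without the drug were compared between vehicle fat and vehicle hypothalamus, whose libraries were made with the same kind of kit. This ratio is not the oxaliplatin contrast that chose the genes, though the vehicle libraries are the same. All 35 genes differed, 33 higher in fat (37.5% of all genes) and 2 lower (34.2%), with a median log2 ratio of 2.44 against 0.07 over all 19564 genes. Cd300lg was at 135, 102 and 114 CPM in vehicle fat, against 0.140, 0.148 and 0.191 CPM in vehicle hypothalamus (9.48 ± 0.20, adjusted p = 7.02e-08), a fold of 712. Aplnr was at 52.5, 46.6 and 32.9 CPM in vehicle fat, against 0.105, 0.518 and 0.610 CPM in vehicle hypothalamus (6.74 ± 0.49, adjusted p = 2.65e-05). B3gnt3 was at 19.9, 16.8 and 18.3 CPM in vehicle fat, against 0.559, 0.629 and 0.458 CPM in vehicle hypothalamus (5.05 ± 0.19, adjusted p = 3.92e-07). All 3 were under 1 CPM in every vehicle hypothalamus library.

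Vwf had a smaller gap, at 120.2, 138 and 111 CPM in vehicle fat, against 29.6, 28.1 and 34.9 CPM in vehicle hypothalamus (1.99 ± 0.13, adjusted p = 6.72e-06). The chemokine binder Ackr1 ran the other way, at 6.47, 8.71 and 10.0 CPM in vehicle fat, against 19.0, 20.3 and 19.9 CPM in vehicle hypothalamus (-1.23 ± 0.17, adjusted p = 0.000412), as did S1pr1, at 89.8, 60.3 and 63.2 CPM in vehicle fat, against 112, 116.6 and 125 CPM in vehicle hypothalamus (-0.73 ± 0.16, adjusted p = 0.00454). The exons of Ackr1 overlap those of Cadm3 on the same strand, so its counts may hold Cadm3 reads, whose part was not tested. Leaving out any 1 of the 6 libraries, or adding mouse number as a block, left 33 higher and 2 lower. Upper quartile scaling gave 33 higher and 1 lower and moved the median of all genes to 0.36.

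**Figure D5:**
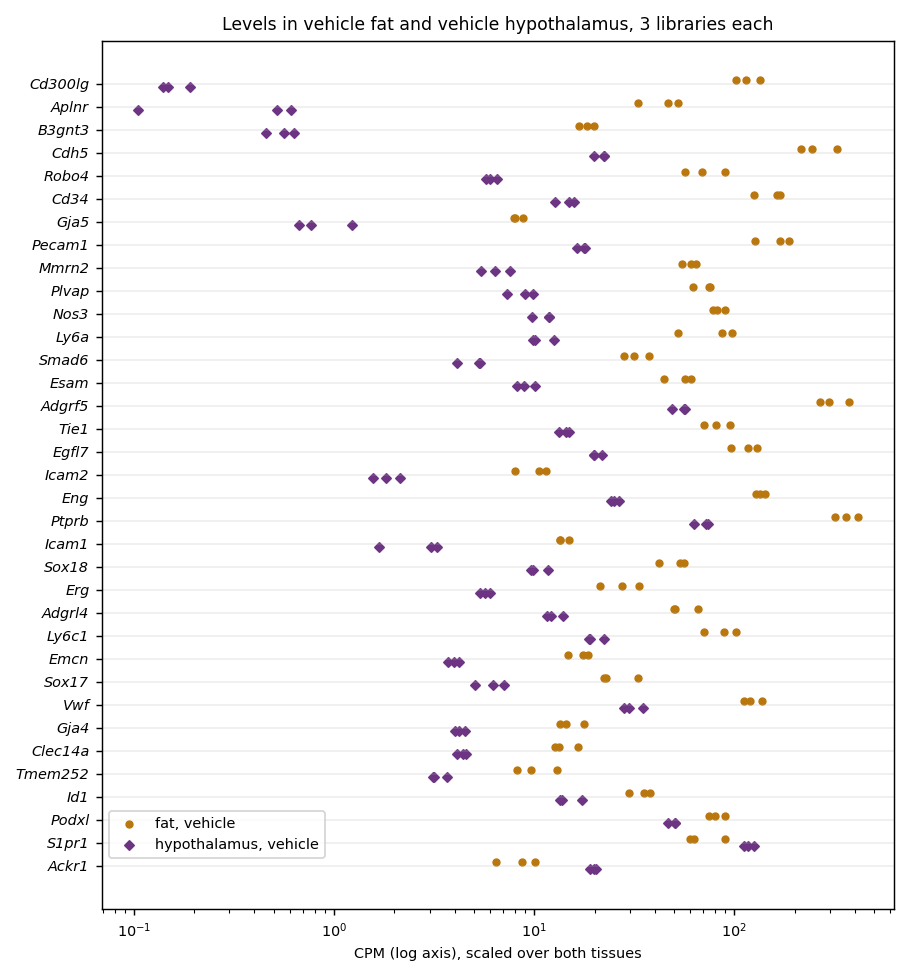
CPM in vehicle fat (circles, 3 libraries) and vehicle hypothalamus (diamonds, 3 libraries) on a log axis (x) for the 35 genes (y axis), with both tissues scaled together. Except for S1pr1 and Ackr1, every gene has all fat circles right of all hypothalamus diamonds.

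Per kilobase of exon, the order of the genes differed by tissue. In vehicle hypothalamus S1pr1 led with 37.7 ± 1.9 CPM per kb (SD, n = 3), ahead of Ackr1 (13.7 ± 0.44), Id1 (12.5 ± 1.7) and Ly6c1 (11.6 ± 1.1), where neighbours among the last 3 overlap within their SD. In vehicle fat Ly6a (72.3 ± 20.2), Cdh5 (69.4 ± 17.1) and Ly6c1 (57.6 ± 9.3) led and were not apart beyond their spread. In vehicle muscle Ly6c1 (46.6 ± 4.8) and Ly6a (35.5 ± 3.5) stood above Esam (14.2 ± 1.6). The lowest levels per kb were those of Cd300lg in hypothalamus, Gja5 in fat and Smad6 in muscle. Each overlapped within its SD with the next gene, Cd300lg with Aplnr, Gja5 with Tmem252 and Smad6 with Sox17.

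A list of other endothelial genes, none of them among the 35, was read beside them. It too was chosen with earlier results of these data known, so its counts are descriptions. Of 30 such genes tested in hypothalamus, 26 were above 0 (52.0% of all genes) and 3 rose (0.148%), with a median of 0.42 against 0.01 over all genes. Those 3 were the VEGF receptor gene Flt1 (1.22 ± 0.14, adjusted p = 0.0136), Nostrin, which binds endothelial nitric oxide synthase (1.46 ± 0.20, adjusted p = 0.0307), and the lectin-like Cd93 (1.17 ± 0.18, adjusted p = 0.0447). In muscle 29 were tested with a median of 0.14, and in fat 30 with a median of 0.08. EdgeR called 0 of them in each. At an unadjusted p under 0.05 there were 3 in muscle, against 9.59% of all genes, and 10 in fat, against 26.1%. DESeq2 called 0 in muscle, against 1.49% of all genes, and 5 in fat, against 12.1%, and limma-voom 0 in both. In fat the genes of smallest p were lower: Tek, encoding Tie2 (-0.44 ± 0.10, adjusted p = 0.114), Sox7 (-1.21 ± 0.30, adjusted p = 0.116) and Palmd (-1.29 ± 0.33, adjusted p = 0.116).

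Lists by vessel type and signal, also chosen with earlier results known, follow. As background, 0.148% of all tested genes rose in hypothalamus and 52.0% were above 0 there, and 0.115% rose in muscle. In hypothalamus the called genes were Cxcl12, a chemokine of arterial endothelium (1.31 ± 0.15, adjusted p = 0.0136), Slc2a1, the glucose transporter of brain capillaries (1.27 ± 0.18, adjusted p = 0.0425), and, of 9 venous genes tested, Lrg1 (3.11 ± 0.31, adjusted p = 0.00738) and the interleukin receptor gene Il1r1 (1.32 ± 0.19, adjusted p = 0.04). Acvrl1, the BMP receptor that works with endoglin, rose as well (1.04 ± 0.15, adjusted p = 0.0331), as 1 of 14 BMP and SMAD response genes tested, whose median was 0.05. The median of 12 arterial genes was 0.89, that of 8 capillary genes 0.75 and that of the 9 venous genes 0.06, with 5 of the 9 above 0. In muscle Ccl2, a monocyte chemokine of the NF-kB list, rose (2.31 ± 0.33, adjusted p = 0.0211), and Hey1, a Notch and BMP target, did not pass (1.04 ± 0.21, adjusted p = 0.0812). In fat the BMP target Id3 was at -1.04 ± 0.23, adjusted p = 0.114 and the NF-kB target Birc3 at 0.85 ± 0.15, adjusted p = 0.0878, neither passing. Lymphatic genes had medians of 0.13 in hypothalamus, -0.22 in muscle and 0.89 in fat, where Prox1 (2.06 ± 0.55, adjusted p = 0.118) and Mmrn1 (2.62 ± 0.87, adjusted p = 0.14) did not pass. Shear stress genes had medians of 0.47 in hypothalamus, 0.04 in muscle and -0.41 in fat, and the NF-kB list 0.76, 0.26 and 0.36 in the same order.

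For 8 of the 35 genes another gene model overlaps the exons in GENCODE M21, and whether reads were counted by strand was not given in the sources used here. Eng overlaps Fpgs on the other strand, Icam1 Gm47079, Nos3 Atg9b and Gm15587, and Ackr1 Cadm3 on the same strand. Egfl7 overlaps Gm20532 and Mir126a on the same strand and Mir126b and Agpat2 on the other. Sox17, Cd34 and Gja5 have a neighbour on the other strand. Counting by strand would not part Ackr1 from Cadm3, or Egfl7 from its neighbours on the same strand. Each Ackr1 change, level and level per kb given here may therefore hold Cadm3 reads, which was not tested. Leaving the 8 genes out left 10 called in hypothalamus and 2 in muscle.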

How the data were processed

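Total RNA of tibialis anterior, subcutaneous white fat and hypothalamus was sequenced in 23 libraries. For each gene the authors deposited an expected count per library, an estimate that need not be whole. Per the submitters' processing notes the tools named were STAR 2.5.1a, Partek and DESeq2, with no genome build stated. Per the labels' protocols muscle libraries were made with a SMARTer kit and the others with a ribosomal RNA depletion kit. Expected counts were rounded and tested in edgeR 4.0.16 under R 4.3.3 (TMM factors, filterByExpr with a minimum count of 10, robust quasi-likelihood F test), within each tissue, with Benjamini-Hochberg adjustment over all genes tested and a threshold of 0.05. Differences between tissues were interaction terms in fits over both tissues, and vehicle fat and hypothalamus were fitted on their own. DESeq2 1.42.0, limma-voom (limma 3.58.1), other scalings and filters, a replicate block and leaving out each library were alternatives. The scripts were tested on simulated data. The fixed design assumed counts and the tables held expected counts, hence the rounding.

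The 35 genes and the other lists (other endothelial, BMP and SMAD, shear stress, NF-kB, arterial, capillary, venous and lymphatic genes, and cell type markers) were chosen with earlier results of these data known. Values per library were given for genes called in any contrast, for the 6 of smallest p in each tissue, and for Pecam1, Cdh5, Vwf, Icam1, Plvap, Id1 and Nos3. From every other list up to 3 genes of smallest p could be named. Cd34 and Aplnr in fat or vehicle tissue, and the 4 genes with printed promoters, were singled out after their values were seen. Library totals were 16.5 to 32.2 M counts, and no interval beyond the SE and SD is given.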

Additional observations from a re-analysis of the deposited data

Results flagged for a closer look

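In groups of 4 or 5 libraries, 144 groups of member values were examined for 1 library far from the others, and 8 stood out, or 5.56%. Chance flags about 1 in 20 groups. In oxaliplatin hypothalamus mouse 5 was the lowest in 3 of these: Adgrf5 at 68.5 CPM against 82.4 to 84.5 CPM in the others, B3gnt3 at 1.52 CPM against 2.5 to 2.67 CPM, and the mean log2 level of the 35 genes over vehicle at 0.64 against 1.0 to 1.05. In oxaliplatin fat mouse 5 had 18.6 CPM of Tmem252 against 60.0 to 68.4 CPM. In oxaliplatin muscle mouse 1 had 9.81 CPM of Emcn against 13 to 14.1 CPM. In vehicle muscle mouse 2 had 3.54 CPM of Gja5 against 6.04 to 6.28 CPM and 1.47 CPM of Sox17 against 0.94 to 1.03 CPM, and mouse 1 had 0.779 CPM of Smad6 against 0.559 to 0.594 CPM.

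The interaction term was called for Vwf in muscle minus hypothalamus (-2.02) and for 6 genes in fat minus hypothalamus: Vwf (-2.53), Smad6 (-2.19), Cd300lg (-2.05), B3gnt3 (-1.67), Eng (-1.26) and Robo4 (-1.20). That fit takes each library as a separate animal, although mouse numbers recur between tissues. It also shares the spread of each gene between both tissues, and Cd300lg was at most 0.654 CPM in hypothalamus. With the animal as a fixed block, 0 members were called in either contrast, beside 0 of all genes in each. Without vehicle hypothalamus mouse 1, 0 members were called in either contrast as well, beside 3 of all genes in each. The part of library preparation, depth and cell composition in these differences was not tested.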

How the results depend on the processing

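DESeq2 size factors, upper quartile factors and a mean of at least 1 CPM left 3, 0 and 11 members called in muscle, fat and hypothalamus. DESeq2 called 10, 6 and 22 members and 248, 2377 and 266 genes, and limma-voom 1, 0 and 3 members and 13, 0 and 11 genes, in the same tissue order. Without a filter on low counts muscle had 5 members and 42 genes. Mouse numbers did not pair the arms: deviations of same-numbered libraries correlated at 0.0512, -0.0936, -0.177 and 0.174 in muscle, -0.177 and -0.28 in fat, and 0.0323 and -0.0113 in hypothalamus. A replicate block on the shared numbers gave 0 members and 3 genes in muscle, 0 members with a median of 0.30 in fat, and 7 members and 64 genes in hypothalamus, where the same libraries without the block gave 0, 5 and 6 members. With the muscle library titled oxaliplatin mouse 5 set to vehicle, 0 members and 0 genes were called. Leaving out 1 library gave 0 to 1 members and 2 to 17 genes in muscle, 0 to 13 members, medians of 0.031 to 0.27 and 0 to 4969 genes in fat, and 0 to 24 members and 0 to 655 genes in hypothalamus. Called differences numbered 0 to 7 (muscle minus fat), 0 to 10 (muscle minus hypothalamus) and 0 to 19 (fat minus hypothalamus) when 1 library was left out. The fixed block gave 0 members for muscle minus hypothalamus and 0 for fat minus hypothalamus, beside 0 of all genes in each. For fat minus hypothalamus limma-voom gave 3 members, beside 104 of all genes. Signs turned only in genes that were not called. In muscle these were Erg (-0.073) and Podxl (-0.093) with mouse 5 as vehicle. In fat they were Cdh5 (0.064), Eng (0.051), Sox17 (0.055), Nos3 (0.015) and Id1 (0.041) under upper quartile factors, Cdh5 under limma-voom (0.016) and at 1 CPM (0.0052), and, under the replicate block, Cdh5 (0.18), Robo4 (0.019), Sox17 (0.32), Ptprb (0.027) and Id1 (0.21). In hypothalamus it was Emcn under limma-voom (-0.026) and the block (-0.28). When 1 library was left out, values ran from -0.11 to 0.068 for Emcn, -0.082 to 0.25 for Erg and -0.056 to 0.25 for Podxl in muscle. In fat they ran from -0.13 to 0.20 for Cdh5, -0.065 to 0.023 for Eng, -0.27 to 0.067 for Robo4, -0.22 to 0.20 for Sox17, -0.00033 to 0.26 for Ly6c1, -0.12 to 0.0095 for Nos3, -0.020 to 0.28 for Gja4 and -0.19 to 0.10 for Id1. In hypothalamus Emcn ran from -0.23 to 0.11. The cause was not tested in any of these. Depth limits the lowest genes: the vehicle means of Aplnr, Cd300lg, B3gnt3 and Gja5 in hypothalamus and of Smad6 in muscle were under 1 CPM. The alternatives for vehicle levels and for overlapping gene models were chosen after seeing the data.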
